A study of Homo sapiens with 2 samples.

Results

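Oxidative phosphorylation genes were compared between 2 stable populations of Panc1, an established line of human pancreatic ductal adenocarcinoma cells. A probe set (a group of short array probes that reads 1 transcript) was included when the platform annotation gave it exactly 1 gene symbol and that symbol began with NDUF, UQCR, COX4, COX5, COX6, COX7, COX8 or ATP5, or was SDHA, SDHB, SDHC or SDHD. The rule used names only and no measured value, although the group was chosen with earlier results of these data known. It found 173 probe sets of 54675, reading 90 genes of the 19775 named by 1 symbol. The mock population (Panc1/mock) carried the vector alone, and the other (Panc1/syk-wt) had been transfected with wild-type syk, which encodes a non-receptor tyrosine kinase. Hygromycin selection was applied to both, they were kept below confluence over the same span of passages, and total RNA was taken from each. The series title calls the mock cells drug-resistant, and the comparison asks which transcripts differ between cells given syk and cells given the vector. Neither the promoter driving syk nor the number of clones behind each population is stated in the sources used here. A single array was run per population. The values therefore have no error of their own, and effects of the array, the RNA and the population cannot be told apart.

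Oxidative phosphorylation is carried out in the inner mitochondrial membrane. Complex I takes electrons from NADH and complex II takes them from succinate. Both pass them through ubiquinone to complex III, cytochrome c and complex IV, where oxygen is reduced. The proton gradient built along the way drives complex V, the ATP synthase. All complexes but II combine subunits from nuclear and mitochondrial genes. Complex I is the largest and needs dedicated assembly factors, the NDUFAF proteins, which are not part of the finished enzyme. The label of the gene group held up as a description of the 85 protein-coding genes, while the remaining 5 of the 90 were noncoding: 2 antisense RNAs, 1 divergent transcript and 2 pseudogenes.

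The deposited values were taken as log2 intensities from RMA, and a difference is given as syk-wt minus mock on that scale, where 1 is 2-fold. Median intensity was 4.26 for mock and 4.24 for syk-wt. The brightest of 4 SYK probe sets read 4.27 in mock and 4.73 in syk-wt, and the other 3 were slightly lower on the syk-wt array. No SYK value exceeded 4.77, the highest of 27 bacterial control probe sets, which serves below as the floor for dim signal. The labels could not be checked by SYK itself, so every direction below rests on them as given. For ACTB, the 3' control probe set exceeded the 5' one by 1.95 in mock and by 2.37 in syk-wt. For GAPDH it did so by 0.19 in mock and by 0.32 in syk-wt. The part of this in the differences below was not tested. Of the ductal epithelial markers KRT7, KRT8, KRT18, KRT19, EPCAM and CDH1, 6 of 6 exceeded the floor on the mock array and 5 of 6 on the syk-wt array, where CDH1 read 3.47, and their summed linear intensity was 14680 in mock and 11037 in syk-wt. No marker of acinar cells, islet cells, leukocytes or endothelium exceeded the floor on either array (0 of 3, 0 of 5, 0 of 5 and 0 of 5 measured), and of 6 fibroblast markers COL1A1 did so on both arrays and ACTA2 on the mock array.

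Oxidative phosphorylation genes as a whole differed little. Complex I assembly factors were higher on the syk-wt array in 7 of 8 cases. By their medians, complex I and III subunits leaned higher, complex II lower, and complex IV hardly differed. Among genes above the floor on both arrays, ATP5F1C, the gamma subunit of ATP synthase, the assembly factor NDUFAF3 and NDUFV2, a core subunit of complex I, had the most negative differences. A gene was represented by whichever of its probe sets was brightest on average. Of the 90, 84 had a mean of at least 4.25, which is the median (50th percentile) of the table's probe sets. Of the 84, 1 was at least 2-fold higher and 0 were at least 2-fold lower, where 3.61% and 3.65% of the 12814 genes measured in this way were. Past a log2 difference of 0.5 (1.41-fold), 12 of the 84 (14.3%) were higher, near the 15.4% of all genes, and 4 (4.76%) were lower, where 13.2% of all genes were. The median difference of the 84 was 0.10 with an interquartile range from -0.11 to 0.32, and that of all genes was 0.01 with a range from -0.28 to 0.33. Of the 84, 52 lay above 0 (61.9%), compared with 50.8% of all genes.

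**Figure D1:**
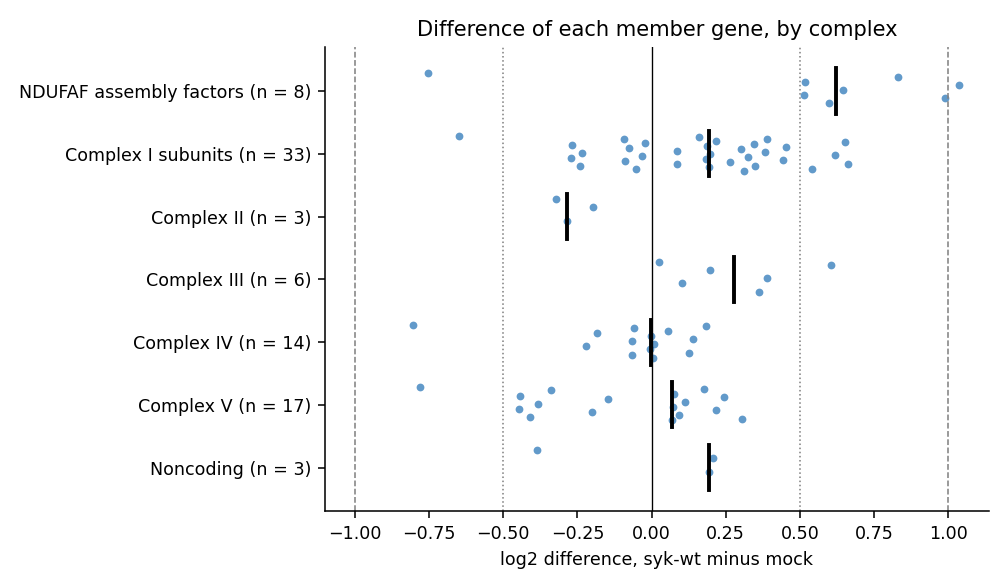
Log2 difference (syk-wt minus mock, x axis) of each of the 84 genes past the filter, 1 point per gene, in rows by complex. Black bars are medians, dotted lines mark 0.5 and dashed lines mark 1. The row of assembly factors lies to the right except for NDUFAF3 at -0.75, and complex IV lies close to 0 except for COX6B2 at -0.81.

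The assembly factors of complex I were the part of the group that stood farthest from 0. All 8 were measured and differed by more than 0.5, with a median of 0.62, and 7 were higher, where 15.4% of all genes were. With a loess trend removed 5 stayed past 0.5, NDUFAF1 and NDUFAF2 falling to 0.49, and with the mean or median over probe sets 6 did. NDUFAF4, which acts early on the ubiquinone-binding part of the enzyme, read 8.73 in mock and 9.77 in syk-wt, 2.05-fold higher. It was the only gene of the 84 past 2-fold, and its dimmer probe set differed by 0.82. NDUFAF6, another early factor, read 8.15 and 9.13, 1.98-fold higher and just short of 2-fold, with 0.59 by its second probe set.

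NDUFAF3, the binding partner of NDUFAF4, differed in the opposite direction. It read 9.94 in mock and 9.19 in syk-wt, 1.69-fold lower, by its only probe set. The enzymes that modify core subunits during assembly were both higher by their brightest probe sets. NDUFAF5, which hydroxylates an arginine of NDUFS7, read 8.05 and 8.65, 1.52-fold higher, and a second probe set differed by 0.51. NDUFAF8, which stabilises NDUFAF5, read 10.59 and 11.23, 1.57-fold higher. NDUFAF7, an arginine methyltransferase, read 7.39 and 8.23, 1.78-fold higher, but this rests on 1 of 3 probe sets, since the other probe sets differed by -0.16 and -0.39. NDUFAF1, a factor of the membrane arm (8.95 and 9.47), and NDUFAF2, which acts late (9.40 and 9.92), were each 1.43-fold higher and lay just past the threshold. With the mean over probe sets in place of the brightest, 0 genes were 2-fold higher, NDUFAF4 differing by 0.93, and NDUFAF7 differed by 0.09.

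**Figure D2:**
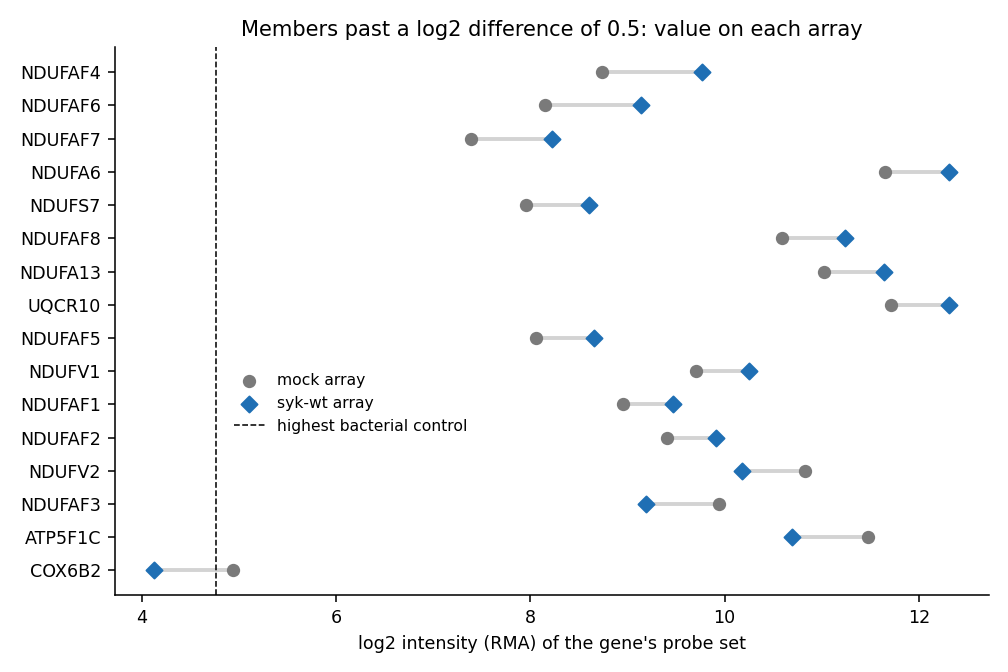
Log2 intensity on the mock array (grey circles) and the syk-wt array (blue diamonds) of the 16 genes past a difference of 0.5, each joined by a line, with the highest bacterial control (4.77) dashed. The diamond lies to the right of the circle in 12 genes and to the left in NDUFV2, NDUFAF3, ATP5F1C and COX6B2, and COX6B2 alone falls below the dashed line on the syk-wt array.

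The 33 subunits of complex I had a median difference of 0.19, with 22 above 0, where 50.8% of all genes were. By 0.5 or more, 4 were higher (12.1%, where 15.4% of all genes were) and 1 was lower (3.03%, where 13.2% were), so the higher count did not exceed that of genes in general. The core subunits, which are conserved from bacteria, went both ways. NDUFV1, which holds the NADH-binding site, read 9.71 in mock and 10.25 in syk-wt, 1.45-fold higher, although its dimmer probe set differed by -0.04. NDUFV2, its iron-sulfur partner in the same module, read 10.83 and 10.18, 1.57-fold lower. NDUFS1, the remaining core subunit of that module measured here, was lower by 0.24, and its second probe set differed by -0.25.

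In the module that reduces ubiquinone, NDUFS7 read 7.96 and 8.61, 1.57-fold higher, whereas NDUFS3 read 10.19 and 9.92, 1.21-fold lower. The core subunits therefore did not share a direction: 2 of 5 were higher and 3 lower. Among accessory subunits of the matrix arm the median was 0.35 over 8 genes. NDUFA6, an LYR-motif protein that binds the acyl carrier protein, was the highest subunit of the complex, at 11.65 and 12.31 (1.58-fold), with 0.93 by its other probe set. NDUFS6 (0.44), NDUFA7 (0.38), NDUFS4 (0.35) and NDUFA12 (0.35) were also above 0. NDUFA2, NDUFA5 and NDUFV3 lay between -0.09 and -0.02, and the dimmer NDUFV3 probe set differed by 0.97.

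The accessory subunits of the membrane arm had a median of 0.19 over 19 genes, 14 of them above 0, where 50.8% of all genes were. NDUFA13, also known as GRIM-19, read 11.02 and 11.64, 1.53-fold higher, and was the only 1 of the 19 past 0.5. NDUFA9, which lies at the junction of the arms, was just short of it at 0.45. NDUFA1 was the lowest, at 12.68 and 12.41 (-0.27). The NDUFB subunits, which build the distal membrane arm, ranged from -0.09 (NDUFB2) to 0.32 (NDUFB10), so none reached 0.5 in either direction.

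Complex II was lower in all 3 subunits measured, where 6124 of the 12814 genes measured lay below 0. SDHA, the flavoprotein that oxidises succinate, read 10.17 in mock and 9.89 in syk-wt (-0.28). Of the membrane anchors, SDHD read 9.30 and 8.98 (-0.32) and SDHC read 10.30 and 10.10 (-0.20). The 6 SDHC probe sets past the filter all lay below 0, from -0.35 to -0.01. The one at -0.35 read 4.53 in mock and 4.18 in syk-wt, below the floor on both arrays. Another SDHC probe set, also below the floor, missed the filter and differed by 0.54. None of these subunits reached 0.5, and probe sets that read the same gene differed from each other with a pooled SD of 0.35 over 6028 genes, which exceeds each of these 3 differences. Within the oxidative phosphorylation genes alone that SD was 0.23 over 34 genes, which SDHA and SDHD exceed and SDHC does not. That SD covers the behaviour of probes and transcript variants and no variation between cultures. The SDHA and SDHC values come from probe sets of the _x_at kind, whose probes can also match related sequences. Without the _s_at and _x_at kinds SDHA was not measured and SDHC differed by -0.01. The median of the complex was then -0.16 over 2 genes.

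Complex III was higher in all 6 subunits measured, where 50.8% of all genes lay above 0, with a median of 0.28. UQCR10, a small accessory subunit, read 11.71 and 12.31, 1.52-fold higher, and its second probe set differed by 0.49. UQCRQ was higher by 0.39 and the core protein UQCRC2 by 0.36, with 0.31 by the other UQCRC2 probe set. UQCRC1 (0.10) and UQCR11 (0.20) differed less. UQCRB differed by 0.03 in its brightest probe set, by 0.29 in the second and by 0.75 in the dimmest of the 3 past the filter, so the lowest value of the complex is also the least settled. UQCR10 was the only 1 of the 6 past 0.5 (16.7%, near the 15.4% of all genes).

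Complex IV was nearly level between the arrays. Its 10 ubiquitous nuclear subunits had a median under 0.01 and lay between -0.22 (COX6C) and 0.19 (COX4I1). COX6A1 read 12.99 and 13.05, COX6B1 read 12.34 on both arrays, and COX7A2 read 12.73 on both. The tissue-restricted isoforms gave little signal. COX4I2, the lung isoform of COX4, read 5.97 and 5.90 and COX6A2, the muscle form, read 4.65 and 4.58, which is below the floor on both arrays. COX6B2, the testis form of COX6B, read 4.93 and 4.13, and with both arrays floored at 4.77 its difference of -0.81 became -0.17. It passed the filter only through its mock value. COX7A1, the heart and muscle form of COX7A, did not pass the filter, and neither did COX7B2, COX8C, ATP5MF, COX6A1P1 or NDUFV2-AS1, whose mean values were under 4.25. COX7A2L, which joins complexes III and IV into supercomplexes, differed by 0.14.

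Complex V had a median of 0.07 over 17 genes, with 9 above 0 and 8 below. Of the catalytic head, ATP5F1A (alpha) was higher by 0.18 and ATP5F1B (beta) by 0.08. The 3 subunits of the rotating central stalk were all lower. ATP5F1C, the gamma subunit of that stalk, read 11.48 in mock and 10.70 in syk-wt, 1.72-fold lower. All 4 of its probe sets past the filter were lower, from -1.01 to -0.78. The 3 bright ones are of the kind whose probes can also match related sequences. The dim one, at -1.01, read 5.03 in mock and 4.03 in syk-wt, below the floor of 4.77 on the syk-wt array. ATP5F1E, the epsilon subunit, was 1.30-fold lower (-0.38) and ATP5F1D, the delta subunit, lower by 0.15.

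The c ring is encoded by 3 genes whose mature proteins are the same, and they parted. ATP5MC1 read 11.19 and 11.41 (0.22). ATP5MC2 read 11.69 and 11.49 (-0.20). ATP5MC3 read 11.70 and 11.30 (-0.41), and its 3 probe sets lay between -0.56 and -0.39. In the peripheral stalk ATP5PF was lower by 0.45, just short of the threshold, and ATP5PB, ATP5PO and ATP5PD lay between 0.09 and 0.24. Of the membrane subunits, ATP5MG was lower by 0.44, with all 4 probe sets between -0.47 and -0.42, while ATP5MJ was higher by 0.30. All but 1 of the ATP5MG probe sets are of the _x_at kind, whose probes can also match related sequences. ATP5MK read 13.10 and 13.17 (0.07). ATP5IF1, the inhibitor that limits ATP hydrolysis, was lower by 0.34, although 1 of its 3 probe sets differed by 0.04.

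**Figure D3:**
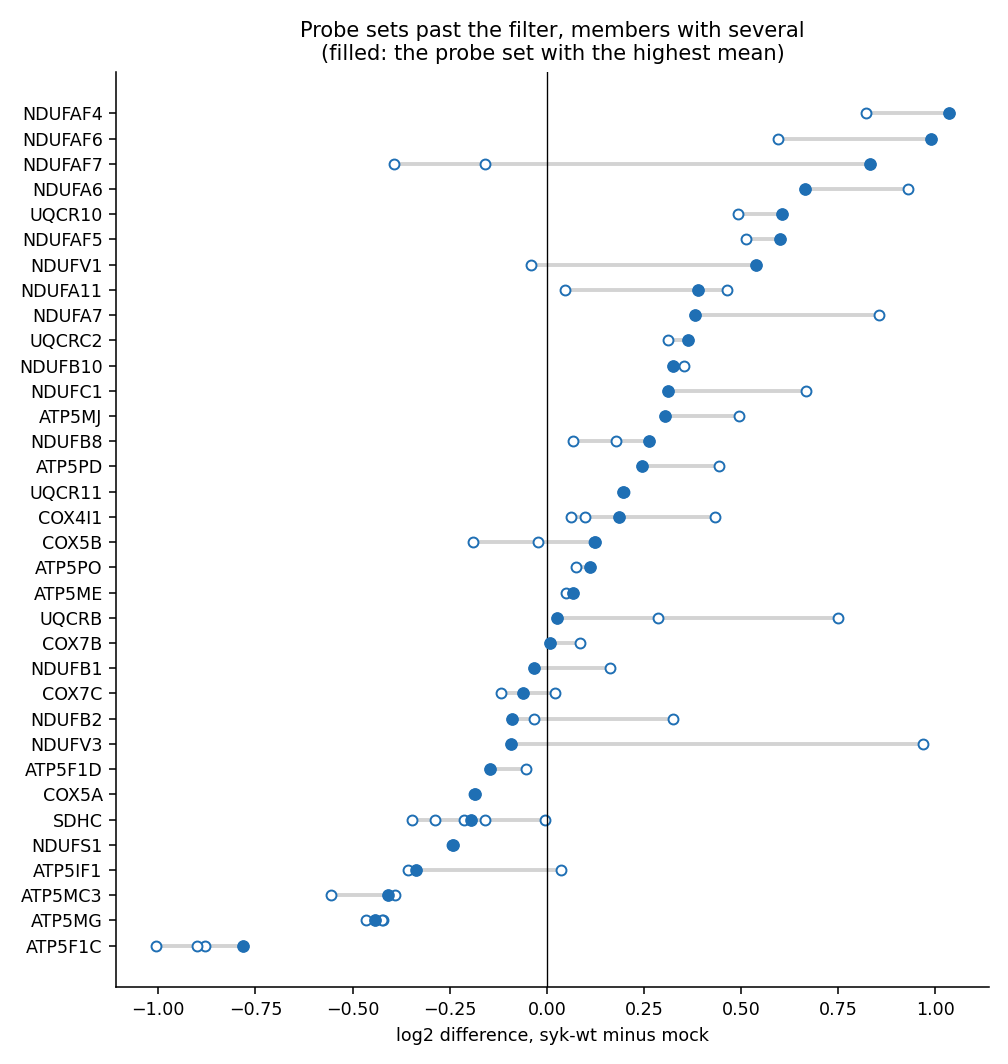
Log2 difference (syk-wt minus mock, x axis) of each probe set that passed the filter, for the 34 genes that had more than 1, filled for the probe set with the highest mean. In 26 genes all points lie on the same side of 0, and the widest spreads are those of NDUFAF7 (-0.39 to 0.83) and NDUFV3 (-0.09 to 0.97).

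More than 1 probe set passed the filter in 34 genes. Their signs were alike in 26 of these and mixed in 8. The filter of 4.25 lies below the floor of 4.77, so some of these genes count a probe set below the floor on both arrays. NDUFB1 is mixed only through such a probe set (4.44 in mock and 4.60 in syk-wt). The pooled SD within a gene, which includes such dim probe sets, was 0.23 over these 34. A difference near 0.2 is therefore no larger than the disagreement between probe sets of the same gene. ATP5F1C, NDUFAF4, NDUFAF6, NDUFAF5 and NDUFA6 exceeded 0.5 in every probe set past the filter. The dim ATP5F1C probe set was below the floor on the syk-wt array. Of the genes in that set past 0.5, NDUFV1 and NDUFAF7 had calls that rest on 1 probe set each, and the second UQCR10 probe set fell just short.

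Genes that work beside these complexes were examined as lists drawn up by textbook function. The lists were chosen with earlier results of these data known, so their shares are description only. The other assembly factors of complex I had a median of 0.47 over 12 genes, with 10 above 0, where 50.8% of all genes were. By 0.5 or more, 6 were higher and 0 lower, where 15.4% and 13.2% of all genes were. NUBPL, which delivers iron-sulfur clusters (6.01 on mock and 6.81 on syk-wt), TMEM186 (7.01 and 7.75) and TMEM126A (10.85 and 11.52) differed most, by 0.80, 0.74 and 0.68. The assembly factors of complexes II to V had a median of 0.27 over 35 genes. By 0.5 or more, 9 were higher (25.7%, against 15.4% of all genes) and 1 lower (2.86%, against 13.2%). COX18, which inserts a complex IV subunit into the membrane, was higher by 0.87, while COX20, a chaperone of the same subunit, was the 1 that was lower, by 0.96 (9.72 and 8.76). Its 3 probe sets ran from -0.96 to -0.34, and with their median it differed by -0.34, which ends that call. UQCC1, a factor of complex III, was higher by 0.86, but its 4 probe sets began at -0.34.

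Mitochondrial ribosomal proteins had a median of 0.45 over 75 genes, with 66 above 0 (50.8% of all genes were). By 0.5 or more, 32 were higher (42.7%, against 15.4% of all genes) and 0 lower (against 13.2%), and 6 were at least 2-fold higher, where 3.61% of all genes were. MRPL46 (8.06 and 9.35), MRPS31 (8.04 and 9.30) and MRPL35 (8.69 and 9.83) differed most, by 2.44-fold, 2.39-fold and 2.21-fold, although 1 of 3 MRPS31 probe sets differed by under 0.01 and the 3 MRPL35 probe sets ran from 0.68 to 1.15, with 0.74 by their median. Of 15 regulators of mitochondrial biogenesis, 4 were higher (26.7%, against 15.4% of all genes) and 0 lower by 0.5 or more, with a median of 0.35 that was 0.10 without the _s_at and _x_at kinds of probe set. TWNK, the mitochondrial DNA helicase, was 2.29-fold higher (7.62 and 8.81). POLRMT, the mitochondrial RNA polymerase, was higher by 0.79 and GABPA, an ETS-family activator, by 0.72, each with a second probe set below 0.

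The subunits encoded in mitochondrial DNA differed in the other direction. All 7 measured lay below 0, where 6124 of the 12814 genes measured did, with a median of -0.29. None was lower by 0.5, where 13.2% of all genes were. COX3 read 6.61 in mock and 6.12 in syk-wt (-0.49), ATP6 read 14.17 and 13.73 (-0.44) and ND2 read 13.46 and 13.12 (-0.33). The COX3 probe set, with the largest difference, was far dimmer than those of ATP6 and ND2. ND6, ND4, COX1 and COX2 lay between -0.29 and -0.11. These symbols are the mitochondrial genes for cytochrome c oxidase subunits, an ATP synthase subunit and NADH dehydrogenase subunits. Some of these values are close to 14.6, the top of the scale on both arrays.

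Among the electron carriers, cytochrome c itself (CYCS) read 12.25 on both arrays by its brighter probe set and differed by 0.73 by the other, and CYC1, the cytochrome subunit of complex III that the naming rule leaves out, was higher by 0.39. That list had a median of 0.20 over 6 genes, with DHODH, which feeds electrons from pyrimidine synthesis, at 0.72 and ETFDH at 0.32. Ubiquinone synthesis genes had a median of 0.22 over 11 genes, with 2 higher (18.2%, near the 15.4% of all genes) and 0 lower by 0.5 or more. PDSS2 was 2.37-fold higher by its brightest probe set (0.23 by the other, 0.74 by their mean) and COQ9 was higher by 0.67 (0.08 by the other). COQ3 followed at 0.38. Genes of the tricarboxylic acid cycle and pyruvate dehydrogenase had a median of -0.25 over 16 genes, with 1 higher (6.25%, against 15.4% of all genes) and 4 lower (25%, against 13.2%) by 0.5 or more. IDH2 was 2.53-fold lower (8.98 and 7.64) but by -0.74 in its other probe set, short of 2-fold. SUCLG2 was 2.01-fold lower (8.48 and 7.47, with -0.99 after median centring). PDHB was 1.75-fold lower (11.51 and 10.70) but by -0.45 in its other probe set, short of 0.5. Carriers of nucleotides and phosphate had a median of 0.02 over 7 genes (-0.11 with the mean over probe sets), with UCP2, an uncoupling-protein homologue, 3.20-fold lower (9.41 and 7.73), VDAC1 lower by 0.40 and SLC25A4 higher by 0.17.

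**Figure D4:**
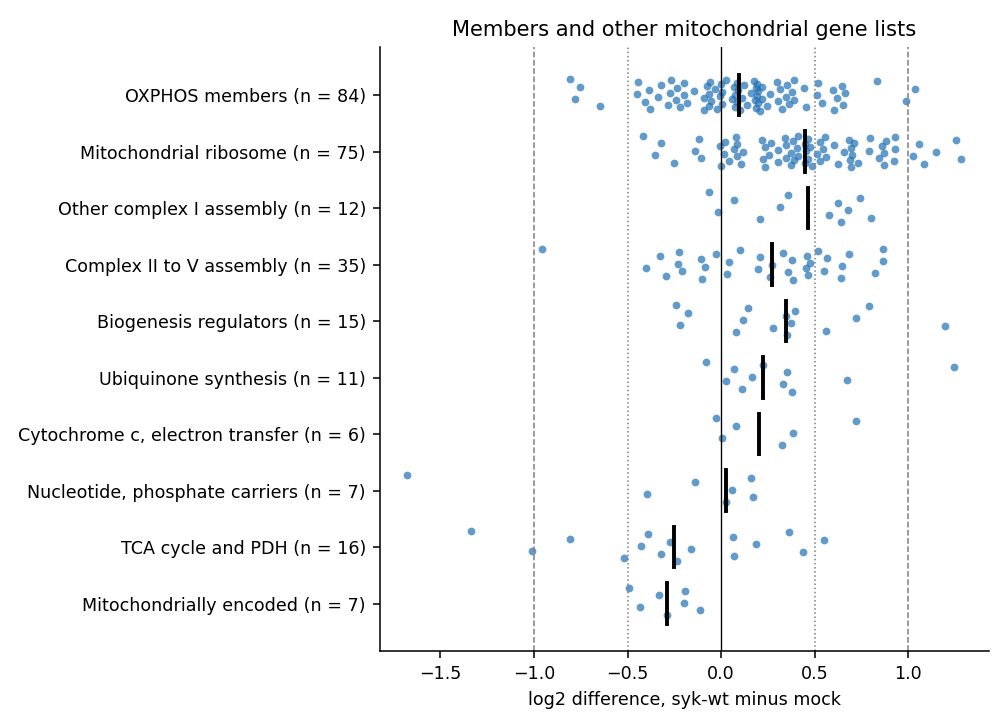
Log2 difference (syk-wt minus mock, x axis) of the 84 oxidative phosphorylation genes and of the genes of 9 other mitochondrial lists, 1 point per gene, with medians as black bars and lines at 0.5 (dotted) and 1 (dashed). The ribosome row has its median at 0.45, and the 7 mitochondrially encoded subunits all lie left of 0.

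Promoters of the genes were compared for motifs of factors known to drive many respiratory genes. RefSeq windows (GRCh38.p14), from 250 bases before to 50 after the start site, were listed for 76 of the 90 genes, and the first listed window of each gene was used. The NRF1 motif was searched as GCGCATGCG and the ETS motif as ACTTCCGG, on both strands. The NRF1 letters stood in 11 of 76 windows (14.5%), in 2.10% of the 27305 windows of all genes and in 3.60% of the 10376 belonging to genes measured here. The ETS letters stood in 9 of 76 (11.8%), in 4.44% of all windows and in 8.48% of those of measured genes. Genes with the NRF1 letters differed in both directions, 7 above 0 and 4 below, with a median of 0.07 compared with 0.15 for the 62 measured genes without them. Those with the ETS letters had 6 above and 3 below, and a median of 0.12 compared with 0.15 without.

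The windows printed here are those of NDUFAF4, the only gene past 2-fold, and of 3 genes past 0.5 that share the NRF1 letters but not a direction: NDUFAF5 and NDUFS7 were higher and ATP5F1C lower. Capitals mark the NRF1 match, or in NDUFAF4 the shorter ETS core CCGGAAG at positions 104 to 110 of the window. In NDUFAF5 and ATP5F1C the letters read on both strands with an overlap, at positions 247 to 256 and 229 to 238. In NDUFS7 the match lies at positions 177 to 185. A match is a run of letters and not a measured binding site.
NDUFAF4, chr6:96897842-96898141, minus strand: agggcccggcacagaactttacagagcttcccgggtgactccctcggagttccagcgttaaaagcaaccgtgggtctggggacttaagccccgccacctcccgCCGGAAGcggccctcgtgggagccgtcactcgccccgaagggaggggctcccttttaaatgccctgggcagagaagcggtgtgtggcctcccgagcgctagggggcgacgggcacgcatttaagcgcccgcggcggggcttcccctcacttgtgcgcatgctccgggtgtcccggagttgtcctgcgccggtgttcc
NDUFAF5, chr20:13784778-13785077, plus strand: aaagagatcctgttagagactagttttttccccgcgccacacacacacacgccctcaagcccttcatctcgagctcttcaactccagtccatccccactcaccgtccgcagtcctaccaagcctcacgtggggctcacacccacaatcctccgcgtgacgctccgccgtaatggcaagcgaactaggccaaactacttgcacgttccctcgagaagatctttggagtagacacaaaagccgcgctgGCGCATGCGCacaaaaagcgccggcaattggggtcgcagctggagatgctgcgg
NDUFS7, chr19:1383657-1383956, plus strand: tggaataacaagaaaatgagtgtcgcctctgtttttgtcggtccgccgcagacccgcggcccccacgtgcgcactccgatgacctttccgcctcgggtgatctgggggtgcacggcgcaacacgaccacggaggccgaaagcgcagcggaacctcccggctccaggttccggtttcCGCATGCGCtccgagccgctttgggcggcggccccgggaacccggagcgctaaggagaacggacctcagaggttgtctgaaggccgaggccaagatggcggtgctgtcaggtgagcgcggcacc
ATP5F1C, chr10:7787927-7788226, plus strand: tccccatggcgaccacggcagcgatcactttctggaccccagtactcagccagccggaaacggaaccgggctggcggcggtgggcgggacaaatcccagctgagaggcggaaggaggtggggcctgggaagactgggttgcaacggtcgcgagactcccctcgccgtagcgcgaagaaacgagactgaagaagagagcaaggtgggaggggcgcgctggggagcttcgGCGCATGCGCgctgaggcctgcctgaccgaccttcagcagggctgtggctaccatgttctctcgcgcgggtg

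The genes past 0.5 were spread over 13 chromosomes, so their neighbours in the RefSeq gene order were also examined, as a measure chosen after the values were seen. For each gene the median difference of the 20 nearest measured genes was taken, 10 on each side. In 12 of the 16 genes past 0.5 (75%) the neighbours' median had the same sign as the gene. It did so for 63.9% of the 3653 genes of all kinds past 0.5, and for 38 of the 68 oxidative phosphorylation genes under 0.5 (55.9%). COX6B2, dim on the syk-wt array, is among the 12. In 1 of the 16 the neighbours' median was itself past 0.5. That gene was ATP5F1C, whose neighbours on chromosome 10 had a median of -0.51 with 17 of 20 below 0. NDUFAF3 on chromosome 3 and NDUFV2 on chromosome 18, both lower, also lay among lower genes. Their neighbours had medians of -0.17 (17 of 20 below 0) and -0.30 (14 of 20 below 0). NDUFV1 on chromosome 11 lay among lower genes (neighbours' median -0.38, 15 of 20 below 0) while being higher itself. NDUFAF4 on chromosome 6 had neighbours at -0.12, and NDUFAF5 on chromosome 20 had neighbours at 0.39. The neighbours of UQCR10 and NDUFA6, both on chromosome 22, had medians of 0.31 and 0.17. The part of gene position in these differences was not tested.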

How the data were processed

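The deposited values are log2 intensities, 1 per probe set and array. The submitters' processing notes name RMA, with version and settings not given in the sources used here; the log2 scale was read from the values, which run from 2.14 to 14.6. Probe sets were named by the platform annotation (2016), and all 90 symbols matched the RefSeq symbol of their gene ID. Probe sets with several symbols were left out, among them 15 with a symbol of the rule.

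Each gene took its probe set with the highest mean. The filter was a mean of 4.25 (the 50th percentile), the thresholds were log2 differences of 1 and 0.5, and the floor was the highest bacterial control. With 1 array per group no test was possible. Named were genes past 0.5, the highest, lowest and brightest of each complex, isoform pairs, and the 3 largest differences of each list; others are named as examples. Members and lists were chosen with earlier results of these data known. Calculations used Python 3.11.15, pandas 2.3.3 and statsmodels 0.14.6 and were checked on simulated data. Alternatives were median centring, removal of a loess trend, the mean or median over probe sets, _at probe sets alone, other filters, the floor, and other motif lengths and windows. The number of arrays limits the precision.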

Additional observations from a re-analysis of the deposited data

How the results depend on the processing

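Of 531 recomputed gene values, 512 moved by less than the SD between probe sets (0.35). Many of them could not move. The filters never change a gene's value, and averaging leaves a gene with 1 probe set past the filter as it was. The count is therefore no measure of how firm the gene values are. Of 202 recomputed summaries, 175 stayed within their limit. That limit was 1.5 times for counts, the SD over the square root of the number of genes for medians, and the 95% Wilson interval for shares. The genes at least 2-fold higher numbered 2 after median centring and 0 with the mean or the median over probe sets. The 1 gene 2-fold lower was ATP5F1C, by its dim probe set (-1.01, below the floor on the syk-wt array). This arose when probe sets of the _s_at and _x_at kinds were dropped (59 genes measured). Under that choice, 7 of the 59 genes were higher by 0.5, where 15.3% of the 9686 genes measured that way were. Of 4 NDUFAF factors, 3 were higher by 0.5, and the complex I median was 0.18. NDUFAF7 reversed to -0.39 when the median intensity of its probe sets was taken on each array (0.09 with the mean). With the mean over probe sets the medians were 0.34 (other complex I assembly), 0.33 (ubiquinone), 0.25 (biogenesis), -0.13 (tricarboxylic acid cycle), -0.11 (carriers) and 0.40 (ribosome). With the median they were 0.34, 0.33, -0.13, -0.11 and 0.41 for the same lists without biogenesis. Without the _s_at and _x_at kinds they were 0.31 (other complex I assembly), 0.20 (complexes II to V assembly), 0.074 (ubiquinone), 0.10 (biogenesis), -0.14 (carriers) and 0.38 (ribosome), and at the 75th percentile filter the other complex I assembly list had 0.36. The cause of these shifts was not tested. Shorter motifs, GCGCA and CCGGAAG, stood in 64.5% and 25% of the 76 promoter windows, where 38.3% and 10.7% of all windows hold them. For genes measured here the shares were 57.7% and 18.7%. Both lie inside the 95% intervals of the 76 windows (53.3% to 74.3% and 16.6% to 35.8%). Taking any listed window of a gene, chosen after the data were seen, gave 15.8% for the NRF1 motif and 14.5% for the ETS motif. Among genes measured here those shares were 4.11% and 9.61%. The median over all genes moved by under 0.1 under each setting. No paired analysis was possible because each group had 1 array.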

Other observations

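The noncoding genes of the group were measured by dim probe sets. NDUFV1-DT, transcribed away from NDUFV1, read 4.93 (mock) and 5.13 (syk-wt), a difference of 0.19, where NDUFV1 differed by 0.54. NDUFV2-AS1, antisense to NDUFV2, read 4.43 and 3.92 by the brighter of its 2 probe sets, both at or below the floor of 4.77, where NDUFV2 differed by -0.65. NDUFB2-AS1 read 5.51 and 5.72, a difference of 0.21, where NDUFB2 differed by -0.09. The pseudogene ATP5MC2P1, on chromosome 1, read 5.40 and 5.02, a difference of -0.39, where ATP5MC2 on chromosome 12 differed by -0.20. COX6A1P1 read 3.59 and 3.60 and gave no signal above the floor.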
